A study of Mus musculus with 10 samples.

Results

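The clustered protocadherins are 3 families of cadherin-related cell surface proteins, named Pcdha, Pcdhb and Pcdhg, whose genes stand next to each other in tandem arrays. Members were taken as the rows of the count table whose mouse symbol begins with Pcdha, Pcdhb or Pcdhg. That gave 56 of 19999 rows: 12 of Pcdha, 22 of Pcdhb and 22 of Pcdhg. Mouse retina was profiled by RNA sequencing, with 5 control libraries and 5 from retinas with light-induced damage. The animals were of the albino strain BALB/c, and the library names call the groups LD-vehicle and CTRL-vehicle, so both carry the word vehicle. Age, sex, light dose, interval since exposure and the nature of the vehicle are absent from the labels. Libraries treated with the compound A74, which the design text names, were not analysed here.

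Each neuron turns on its own small mixture of clustered protocadherins, because the promoters of most members are chosen at random, through DNA looping by the factor CTCF and the cohesin ring. The C-type isoforms (Pcdhac1, Pcdhac2, Pcdhgc3, Pcdhgc4 and Pcdhgc5) are the exception and are not chosen in that way. The proteins bind identical partners on the opposing membrane, so that a neuron can tell its own branches from those of its neighbours. In the retina the Pcdhg family is known for the self-avoidance of starburst amacrine cell dendrites and for the survival of inner retinal neurons. Pcdha and Pcdhg transcripts join a variable first exon, unique to the member, to constant exons shared by the family, whereas Pcdhb genes have no shared constant exons.

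That structure limits what a count per gene can say. Between 47.7% and 57.0% of the 100-base windows in the longest annotated transcript of a Pcdha member also occur in another clustered protocadherin. For Pcdhg the share ran from 5.55%, in Pcdhgc5, to 50.0%, and for the tested Pcdhb members from 0 to 7.73%. Only the longest transcript of each gene was compared, so the low Pcdhgc5 share does not show that few of its reads are shared. The sources used here do not give how reads from shared exons were divided among members, so single Pcdha and Pcdhg counts are less certain than their family sums. The row with identifier ENSMUSG00000007440 is named Pcdha11, a symbol that belongs to 2 identifiers in the annotation, so which member it stands for is uncertain.

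Library totals lay between 14652535 and 20699236 counts, and the labels do not state whether each library is 1 animal. P-values therefore measure the spread between these libraries, which may in part be technical. Light damage replicates 1 and 2 stood apart. They had 17174 and 20414 counts of Xist, the long noncoding RNA of X inactivation, against 1 to 9 in the other 8 libraries. The 8 lens markers in the table summed to 3680 and 1931 CPM there (each library's counts scaled to a common total), to between 14.8 and 68.1 CPM in light damage replicates 3 to 5, and to between 2.57 and 17.1 CPM in control. Of these markers 3 passed the test described further on, and none was at 0 throughout. Xist and lens transcripts were high in the same 2 libraries, so any parts they play cannot be told apart. Sex, which the labels do not give, may differ between these 2 libraries and the other 8. Whether sex or the source of those lens transcripts plays a part in protocadherin values was not tested. Results are therefore also given for the 8 libraries without replicates 1 and 2. The 4 rod markers Sag, Pde6b, Nrl and Gnat1 summed to between 19463 and 31920 CPM, so defining genes of photoreceptors were present in every library.

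The members held between 0.0379% and 0.0535% of a library's counts, or 6270 to 10386 counts. Summed levels of the 3 families did not separate the groups. Pcdha summed to 43.8, 43.6, 43.2, 41.7 and 36.4 CPM in light damage replicates 1 to 5 and to 29.3, 48.4, 35.3, 28.5 and 47.6 CPM in control replicates 1 to 5. The means were 41.8 ± 3.11 and 37.8 ± 9.66 CPM (SD of 5 libraries), and the light damage values lay inside the control range. Pcdhb summed to 244, 253, 258, 232 and 236 CPM with light damage and to 209, 269, 236, 202 and 238 CPM in control. Pcdhg summed to 184, 184, 191, 176 and 180 CPM with light damage and to 166, 220, 189, 168 and 214 CPM in control. In both families, again, no light damage library lay outside the control range. The ratio of group means, light damage over control, was 1.10 for Pcdha, 1.06 for Pcdhb and 0.957 for Pcdhg. It was 1.07, 1.05 and 0.954 when light damage replicates 3 to 5 alone were set against control.

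**Figure D1:**
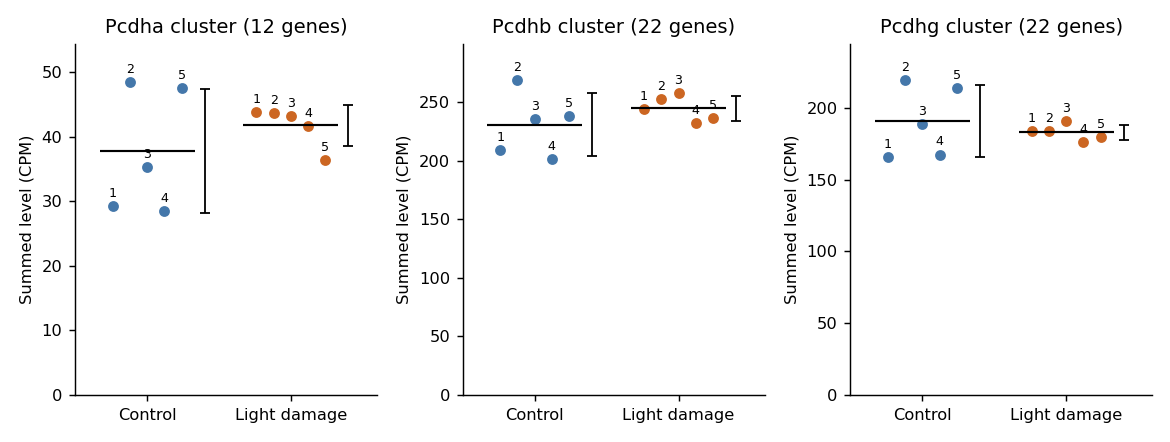
Summed level in CPM (vertical axes, from 0) of the 12 Pcdha, 22 Pcdhb and 22 Pcdhg genes in each library, numbered by replicate, with the group mean (line) and SD (bar). Control replicates 2 and 5 are high and 1 and 4 low for Pcdha and Pcdhg, and every light damage library lies within the control range.

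The controls were the more uneven group, and the families moved together among them. Over all 56 members the highest control library, replicate 2 with 537 CPM, had 1.35 times the level of the lowest, replicate 4 with 398 CPM. Among light damage libraries the corresponding factor was 1.09, from 450 to 492 CPM. Control replicate 2 was highest for each of the 3 families, and control replicate 4 was lowest for Pcdha and Pcdhb. Beside 404, 537, 460, 398 and 499 CPM of members in control replicates 1 to 5, the 4 rod markers summed to 28369, 24349, 19463, 31920 and 24163 CPM. The lowest member sum fell in the library with the highest rod sum, but the library with the lowest rod sum, replicate 3, had a middle member sum. The part of rod RNA in these differences was not tested. In whole tissue, fewer cells of a type and less RNA per cell cannot be told apart.

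The balance between families did separate the groups. Pcdhb summed to 1.33, 1.37, 1.35, 1.32 and 1.31 times the Pcdhg level in light damage and to 1.26, 1.22, 1.25, 1.20 and 1.11 times in control. Every light damage library lay above every control library, and the means were 1.34 ± 0.03 and 1.21 ± 0.06 (SD of 5 libraries). Light damage replicates 3 to 5, without the lens-rich libraries, averaged 1.33. Pcdhg held 39.0% ± 0.55 of all member counts in light damage and 41.6% ± 0.85 in control, without overlap. Pcdhb held 52.1% ± 0.43 and 50.3% ± 1.59, and Pcdha 8.90% ± 0.52 and 8.13% ± 1.1, both with overlap. These shares are taken from the same sums as the ratio, so they are not separate results. A ratio of sums over the members was chosen with values in view and is given without a test. Among single genes, 9.79% of those tested had no overlap between the groups, 4.31% with light damage above and 5.48% with light damage below control. A ratio of sums over many members is unlike a single gene, so these percentages are no direct background for it.

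**Figure D2:**
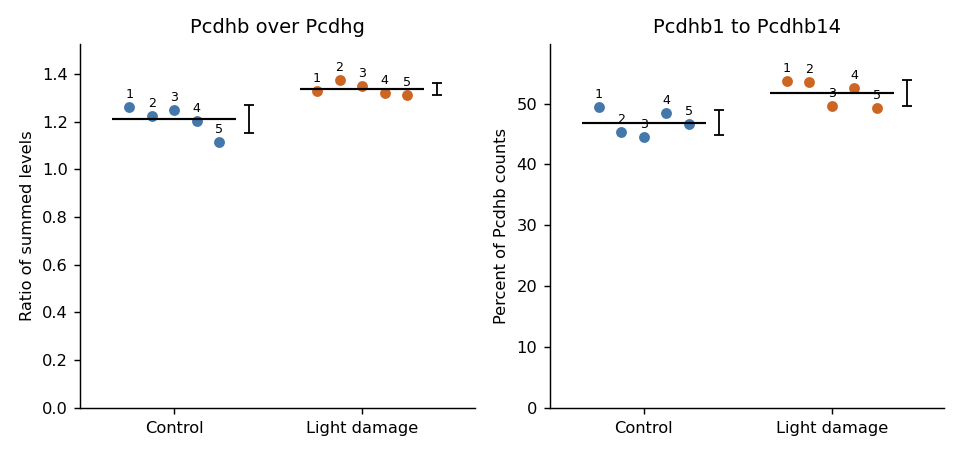
Ratio of the summed Pcdhb level to the summed Pcdhg level (left) and percent of Pcdhb counts from Pcdhb1 to Pcdhb14 (right) in each library, numbered by replicate, with mean (line) and SD (bar), both axes from 0. The ratio lies between 1.31 and 1.37 in light damage and between 1.11 and 1.26 in control, while the percentages overlap at 49.3 and 49.5.

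Levels differed far more between members than between groups. Per kilobase of the longest transcript and over all libraries, Pcdhb20 was highest, with 7.05 CPM per kb in light damage and 7.61 in control. Pcdhb9 followed with 7.93 and 6.23 CPM per kb, and Pcdhb17 with 6.05 and 6.18. The order of Pcdhb20 and Pcdhb9 thus differed between the groups. Next stood 2 C-type isoforms, Pcdhgc4 with 4.73 and 4.52 CPM per kb and Pcdhgc3 with 4.35 and 4.21. Of the 10 members highest on this scale 7 were Pcdhb and 3 Pcdhg. Among tested members, Pcdha8 was lowest, at 0.110 CPM per kb over all libraries.

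Each family was led by a few members. Pcdhac2 alone supplied 34.5% of Pcdha counts in light damage and 35.8% in control, and its level per kb, 2.45 and 2.29 CPM, was the only one in Pcdha above 1. Pcdhac1 supplied 5.40% and 5.21%. Together the C-type isoforms made up 39.9% ± 3.90 of Pcdha counts in light damage and 41.0% ± 1.81 in control (SD of 5 libraries). For Pcdhg the C-type share was 26.3% ± 1.41 and 25.1% ± 0.79, and the groups overlapped for both families. In Pcdhb, 3 of 22 genes, Pcdhb17, Pcdhb20 and Pcdhb9, supplied 11.5%, 10.3% and 9.90% of the counts in light damage and 12.4%, 11.8% and 8.32% in control. Pcdhb22 supplied 8.94% in light damage and 9.26% in control, where it stood above Pcdhb9.

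**Figure D3:**
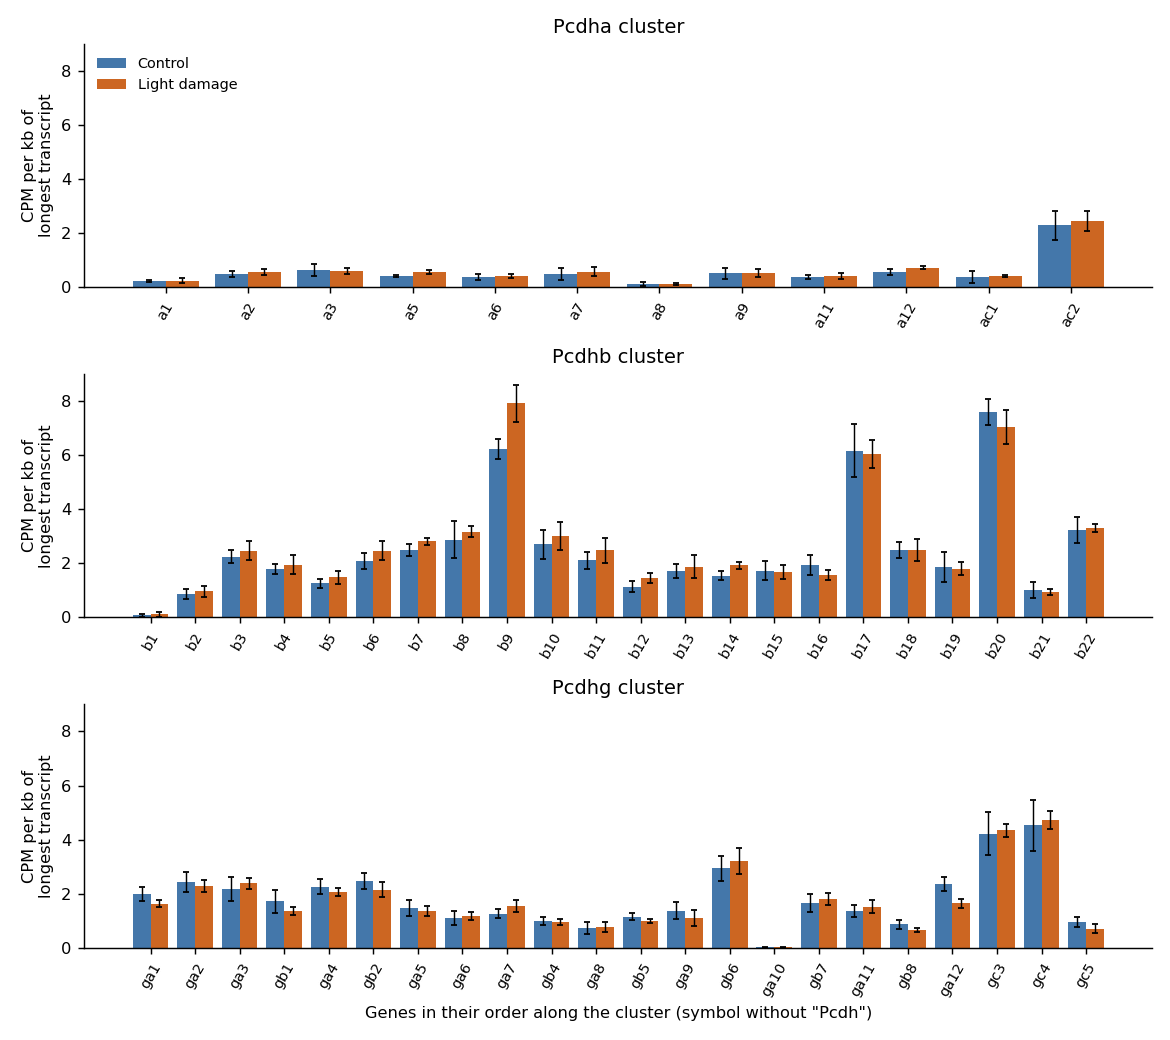
Mean level in CPM per kilobase of longest transcript (vertical axes, from 0) for each member in its order along the cluster, control and light damage side by side, with SD over 5 libraries. Pcdhb20, Pcdhb9 and Pcdhb17 are the tallest, Pcdhac2 leads its family, and Pcdhb1 and Pcdhga10 are close to 0.

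At the low end, 2 members did not pass the filter on low counts. Pcdhb1 had 10, 1, 3, 10 and 3 counts in light damage and 1, 2, 6, 6 and 1 in control. Pcdhga10 had 0 to 2 counts in light damage libraries and 0 to 4 in control libraries. Neither entered the test described below, and counts this low do not show whether they differed. The other 54 members were tested.

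Of the 54 tested members 2 rose and 1 fell with light damage, which is 5.56% of them, against 13.2% of all genes tested. The test was edgeR's quasi-likelihood test on all 16852 genes that passed the filter, and a gene was called where its p, adjusted by the Benjamini-Hochberg method, was under 0.05. By direction, the background was 5.32% for rises and 7.85% for falls. The called members were Pcdhb9 and Pcdhb14, which were higher, and Pcdhga12, which was lower. An unadjusted p under 0.05 was reached by 11 members (20.4%), 6 with higher and 5 with lower values, against 30.3% of all genes. The share of called members thus lay below that of all genes tested. Without light damage replicates 1 and 2, none of the 54 was called by edgeR and 6 had an unadjusted p under 0.05. In that fit of 8 libraries 17253 genes passed the filter, and 2.34% of them were called. Of the 16852 genes tested in 10 libraries, 3507 had an unadjusted p under 0.05 in these 8 libraries. With fewer light damage libraries, a call lost in that fit does not show that a difference is absent.

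Pcdhb9 (ENSMUSG00000051242), the second most abundant member per kb, had 23.9, 27.8, 24, 22.5 and 22.9 CPM in light damage replicates 1 to 5. In control replicates 1 to 5 it had 19.4, 19.9, 17.4, 18.4 and 20 CPM. Every light damage library lay above every control library, and replicate 2 was the highest. The means were 24.2 ± 2.07 and 19.0 ± 1.11 CPM (SD of 5 libraries), which gave a log2 fold change of 0.35 (SE 0.08, edgeR adjusted p = 0.00889). The gene kept its call whichever of the 10 libraries was left out. The log2 fold change was 0.29 in the 8 libraries (edgeR adjusted p = 0.0924).

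Pcdhb14 (ENSMUSG00000044043) had 15.5, 18.1, 17.8, 16.4 and 16.2 CPM with light damage and 12.3, 13.8, 14.7, 11.7 and 14.7 CPM in control. The groups did not overlap, although light damage replicate 1 was close to control replicates 3 and 5. Means were 16.8 ± 1.12 and 13.4 ± 1.4 CPM (SD of 5 libraries), which gave a log2 fold change of 0.33 (SE 0.09, edgeR adjusted p = 0.0265). Its call was lost without light damage replicate 2, light damage replicate 3 or control replicate 4, with edgeR adjusted p of 0.0715, 0.0725 and 0.0535. In the 8 libraries the log2 fold change was again 0.33 (edgeR adjusted p = 0.116).

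Pcdhga12 (ENSMUSG00000102428), the last of the Pcdhga genes along the array, had 8.28, 8.58, 9.47, 7.14 and 8.35 CPM with light damage. In control it had 10.7, 13.8, 11.3, 12.7 and 11.2 CPM. All light damage libraries lay below all controls. The means were 8.36 ± 0.83 and 12.0 ± 1.29 CPM (SD of 5 libraries), which gave a log2 fold change of -0.51 (SE 0.11, edgeR adjusted p = 0.00762). The call held in all 10 fits without a library, and the log2 fold change was -0.52 in the 8 libraries (edgeR adjusted p = 0.0593). Its share of Pcdhg counts was 4.56% in light damage and 6.32% in control. Of its transcript windows 40.7% occur in other members, so part of its count rests on how shared reads were divided.

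**Figure D4:**
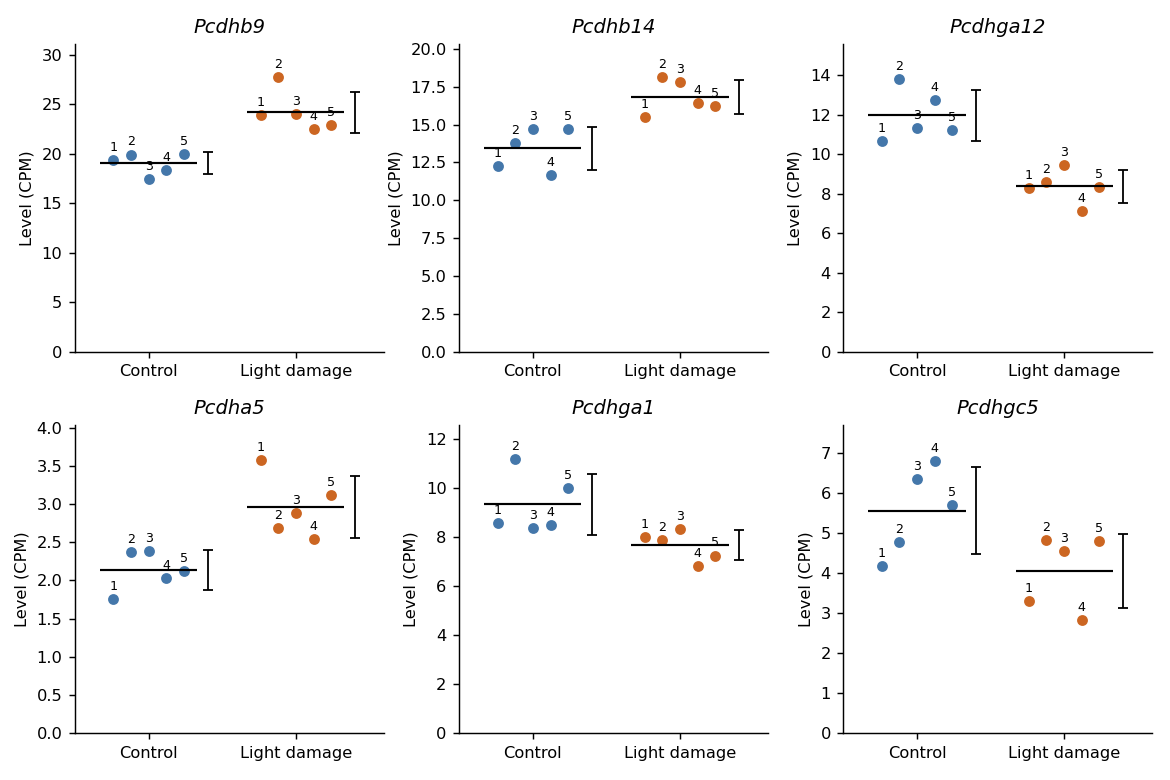
Level in CPM (vertical axes, from 0) in each library, numbered by replicate, with mean (line) and SD (bar), for the 3 called members in the top row and for Pcdha5, Pcdhga1 and Pcdhgc5, which were not called, in the bottom row. The groups do not overlap for Pcdhb9, Pcdhb14, Pcdhga12, Pcdha5 and Pcdhga1, and they overlap for Pcdhgc5.

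Beyond the called genes, Pcdha5 and Pcdhga1 had no overlap between the groups, which makes 5 of 54 members (9.26%) against 9.79% of all genes tested. In 3 members light damage lay above (background 4.31%) and in 2 below (background 5.48%). Pcdha5 had 3.58, 2.69, 2.89, 2.55 and 3.12 CPM with light damage and 1.76, 2.38, 2.39, 2.03 and 2.12 CPM in control. The gap between the groups was narrow, and the log2 fold change was 0.47 (SE 0.17, edgeR adjusted p = 0.076). Pcdhga1 had between 6.81 and 8.33 CPM with light damage and between 8.35 and 11.2 CPM in control, a log2 fold change of -0.28 (SE 0.11, edgeR adjusted p = 0.11). Neither passed the threshold.

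In the Pcdha family 0 of 12 members passed by edgeR and 2 had an unadjusted p under 0.05. DESeq2 and limma-voom also called none. Of all genes tested, 13.2% were called by edgeR and 30.3% had an unadjusted p under 0.05. Log2 fold changes ran from -0.09 in Pcdha3 to 0.47 in Pcdha5, with a median of 0.11 against 0.00 over all genes tested. They were above 0 in 10 of 12 members, against 50.3% of all genes. Because Pcdha members share exons, their values may not be independent of one another. The direction of the family rests in part on light damage replicates 1 and 2, without which 8 of 12 were above 0 and the median was 0.05. Leaving out 1 library gave between 7 of 12, without control replicate 4, and 12 of 12, without control replicate 5. Pcdha12 had 3.84 ± 0.26 CPM with light damage and 2.95 ± 0.60 CPM in control (SD of 5 libraries), which gave a log2 fold change of 0.39 (SE 0.16, edgeR adjusted p = 0.119). Pcdha2 had 2.97 ± 0.59 and 2.60 ± 0.56 CPM, with a log2 fold change of 0.20 that was 0.02 in the 8 libraries. Pcdhac2 had 14.5 ± 2.12 CPM with light damage and 13.5 ± 3.12 CPM in control, and Pcdhac1 2.25 ± 0.27 and 2.10 ± 1.21 CPM. Both differences lay within the spread of the libraries.

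Pcdhb fold changes are described here in 2 stretches of the array, divided after Pcdhb14. The division was made after seeing the values and has no test. Each of the 13 tested genes from Pcdhb2 to Pcdhb14 had a log2 fold change above 0, between 0.11 and 0.36, with a median of 0.18. Of these genes 2, or 15.4%, were called, both higher. Of all genes tested 13.2% were called in either direction and 5.32% were called higher. Neither of the 2 calls held in the 8 libraries. From Pcdhb15 to Pcdhb22, only 2 of 8 were above 0, the median was -0.05 and none was called by edgeR, with 1 at an unadjusted p under 0.05, nor by DESeq2 or limma-voom. The upstream genes, Pcdhb1 to Pcdhb14, summed to 131, 135, 128, 122 and 116 CPM with light damage and to 103, 122, 105, 97.5 and 111 CPM in control. The downstream genes, Pcdhb15 to Pcdhb22, summed to 113, 117, 130, 110 and 120 CPM and to 106, 147, 131, 104 and 127 CPM. Control replicate 2 was the single control above any light damage library for the upstream sum, while every downstream sum with light damage lay within the control range. Upstream genes supplied 51.8% ± 2.12 of Pcdhb counts in light damage and 46.8% ± 2.07 in control (SD of 5 libraries). Light damage replicate 5, at 49.3%, lay below control replicate 1, at 49.5%. The 13 upstream fold changes stayed above 0 under each scaling tried, in the 8 libraries and in 9 of the 10 fits without a library. These fits reuse the libraries whose values set the division, so they do not test it. Without light damage replicate 2, 12 of 13 were above 0. The downstream signs varied more between fits. The 2 of 8 values above 0 became 5 of 8 without control replicate 2 and 0 of 8 without control replicate 4. Without light damage replicate 3 or control replicate 1, 1 of 8 was above 0. With GC and length trends removed, 4 of 8 were above 0. In the 8 libraries the upstream median was 0.12 and the downstream median -0.03.

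**Figure D5:**
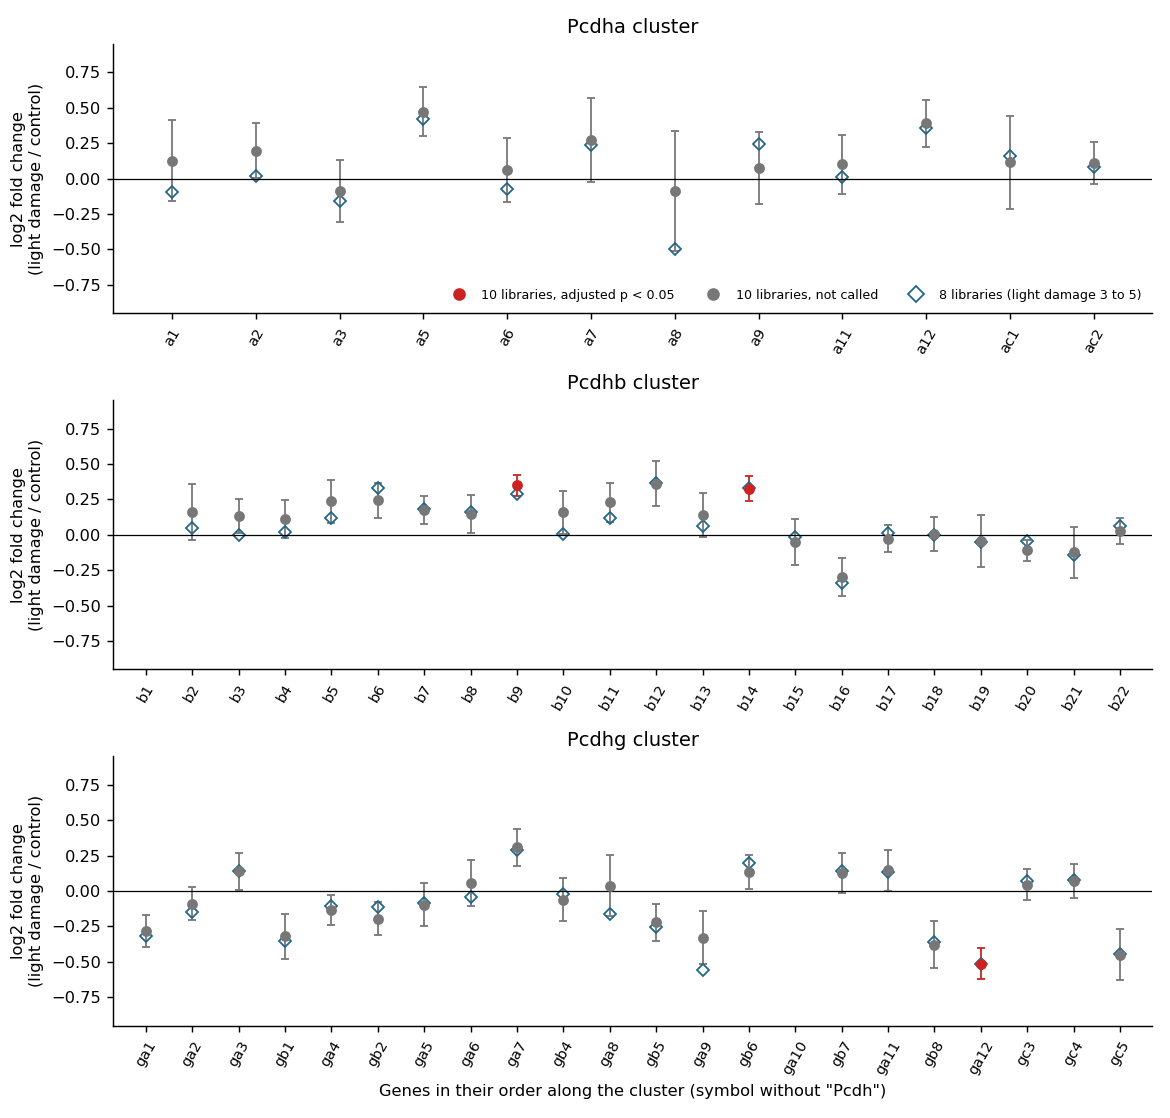
Log2 fold change of light damage over control (vertical axes) with its standard error for each tested member in its order along the cluster, from all 10 libraries (circles, called members in red) and from the 8 libraries without light damage replicates 1 and 2 (diamonds). Pcdhb2 to Pcdhb14 lie between 0.11 and 0.36 in the fit of 10 libraries, and Pcdhb15 to Pcdhb22 between -0.30 and 0.03.

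Around the called Pcdhb genes, Pcdhb12 had the highest log2 fold change of the family, 0.36 (SE 0.16, edgeR adjusted p = 0.133). Pcdhb12 averaged 4.45 ± 0.58 CPM with light damage and 3.47 ± 0.60 CPM in control (SD of 5 libraries), and the groups overlapped. Pcdhb16 had the lowest, -0.30 (SE 0.14, edgeR adjusted p = 0.151), with 8.22 ± 0.94 and 10.1 ± 1.93 CPM. Pcdhb17, the member with the most counts, had 28.2 ± 2.38 and 28.8 ± 4.50 CPM, which gave a log2 fold change of -0.03 (SE 0.10).

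In Pcdhg 1 of 21 tested members was called, which is 4.76%, and it was lower. Of all genes tested, 13.2% were called in either direction and 7.85% were called lower. Log2 fold changes ran from -0.51 in Pcdhga12 to 0.31 in Pcdhga7, with a median of -0.09, and 12 of 21 were below 0. The share above 0 was 42.9%, against 50.3% of all genes. By subfamily, the median was -0.09 over 11 Pcdhga genes, -0.20 over 7 Pcdhgb genes and 0.05 over the 3 Pcdhgc genes. Pcdhga and Pcdhgb sums were 82.7 ± 3.95 and 52.1 ± 2.81 CPM with light damage and 88.1 ± 10.9 and 55.1 ± 7.75 CPM in control (SD of 5 libraries). Pcdhgc genes summed to 48.2 ± 2.98 and 48.0 ± 7.31 CPM. Pcdhga7 had 7.31 ± 1.04 CPM with light damage and 5.92 ± 0.80 CPM in control, a log2 fold change of 0.31 (SE 0.13, edgeR adjusted p = 0.129). Pcdhgb1, named after its values were seen, had a log2 fold change of -0.32 (edgeR adjusted p = 0.188) and was called in a single fit, the one without control replicate 1 (edgeR adjusted p = 0.0411).

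Of the 5 C-type isoforms 4 had a log2 fold change above 0, with a median of 0.07 over the 5, but Pcdhac1, Pcdhgc3 and Pcdhgc4 changed sign when single libraries were left out. None of the 5 was called by edgeR, 1 had an unadjusted p under 0.05, and DESeq2 and limma-voom called none either. Of all genes tested, 13.2% were called by edgeR and 30.3% had an unadjusted p under 0.05. Pcdhgc4, the isoform known to be needed for neuronal survival, had 24.6, 22.8, 24.7, 21.4 and 25.5 CPM with light damage. In control it had 17.2, 27.5, 22.4, 18.8 and 27.7 CPM, so the light damage libraries lay within the control range. Its log2 fold change was 0.07 (SE 0.12). Pcdhgc3 had 20.4 ± 1.10 and 19.8 ± 3.74 CPM (SD of 5 libraries), which gave a log2 fold change of 0.05 (SE 0.11). Pcdhgc5 had 3.30, 4.81, 4.54, 2.82 and 4.79 CPM with light damage and 4.17, 4.76, 6.35, 6.79 and 5.69 CPM in control. Light damage replicates 2, 3 and 5 overlapped control replicates 1 and 2. The log2 fold change of Pcdhgc5 was -0.45 (SE 0.18, edgeR adjusted p = 0.106).

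Neurons that carry clustered protocadherins were also compared through their markers. The 5 amacrine cell markers (Gad1, Slc32a1, Slc6a9, Tfap2a and Tfap2b) summed to between 736 and 813 CPM with light damage and between 558 and 720 CPM in control, without overlap, and 2 of 5 were called higher, against 5.32% of all genes tested. The 5 starburst amacrine markers (Chat, Slc18a3, Slc5a7, Megf10 and Sox2) summed to between 102 and 117 CPM and between 82.1 and 109 CPM. None of these was called by edgeR, DESeq2 or limma-voom, with 2 at an unadjusted edgeR p under 0.05. The 7 ganglion cell markers summed to between 1037 and 1125 CPM with light damage and between 900 and 1241 CPM in control, and none was called by the same 3 tools, with 1 at an unadjusted edgeR p under 0.05. Called higher were 2 of 5 bipolar cell, 2 of 5 horizontal cell, 3 of 5 Müller glia and 1 of 5 microglia markers. Log2 fold changes were above 0 in 4 of 5 amacrine, 5 of 5 bipolar, 3 of 5 horizontal, 5 of 5 Müller glia and 5 of 5 microglia markers. Microglia markers summed to between 41.5 and 78.5 CPM with light damage and between 31.0 and 40.9 CPM in control. All 5 had an unadjusted edgeR p under 0.05, against 30.3% of all genes. Horizontal cell markers summed to between 274 and 301 CPM and between 237 and 267 CPM. Neither the microglia nor the horizontal cell sum overlapped between the groups, while bipolar and Müller glia sums did. Horizontal cell markers were split in direction, so their sum does not stand for each of them. In the 8 libraries the higher calls were 1 amacrine, 1 bipolar, 0 horizontal, 1 Müller glia and 0 microglia marker by edgeR, with 3, 2, 2, 4 and 2 higher at an unadjusted p under 0.05. Of 16852 genes, 3507 had such a p there in either direction. No marker of these lists was at 0 throughout. The part of cell composition in the protocadherin values was not tested.

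Protocadherins outside the clusters are single genes with adhesive roles of their own. Of 12 tested, 0 rose and 1 fell, where 5.32% of all genes tested rose and 7.85% fell. Pcdh15, a tip-link protein of hair cells that is also present in photoreceptors, averaged 144 ± 11.9 CPM with light damage and 201 ± 25.8 CPM in control (SD of 5 libraries). Its log2 fold change was -0.48 (SE 0.08, edgeR adjusted p = 0.00314), and -0.48 in the 8 libraries (edgeR adjusted p = 0.0318). Cdhr1, the photoreceptor cadherin of outer segment discs, had a log2 fold change of -0.22, Pcdh20 of 0.33 and Pcdh8 of 0.17, none of them called.

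The factor CTCF, cohesin and its loaders and release factors set the promoter loops of the clusters. Among 12 of their genes none was called by edgeR, DESeq2 or limma-voom, and 3 had an unadjusted edgeR p under 0.05. Of all genes tested, 13.2% were called by edgeR and 30.3% had an unadjusted p under 0.05. Ctcf had 126 ± 4.16 CPM with light damage and 128 ± 5.90 CPM in control (SD of 5 libraries), named for its role and outside the rule. The lowest p in the list belonged to Nipbl, the cohesin loader, with a log2 fold change of -0.19 (edgeR adjusted p = 0.0883). Its partner Mau2 had -0.19, the release factor Wapl -0.14 and the cohesin subunit Smc1a 0.11.

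Of 12 regulators of DNA methylation and chromatin silencing, processes known to act on the clusters, 2 fell and none rose, where 7.85% of all genes tested fell. Setdb1, a histone methyltransferase, averaged 52.6 ± 2.08 CPM with light damage and 61.9 ± 2.70 CPM in control (SD of 5 libraries), without overlap. Its log2 fold change was -0.23 (SE 0.05, edgeR adjusted p = 0.0117), and the call held in all 10 fits without a library. Tet3, a DNA demethylase, fell by 0.39 on the log2 scale, a call lost without light damage replicate 3 (edgeR adjusted p = 0.0504). With GC and length trends removed Tet3 had a log2 fold change of -0.25 (edgeR adjusted p = 0.0272). Tet2 had a log2 fold change of -0.38 and was not called. The list's median was -0.15, against 0.00 over all genes tested. In the 8 libraries none of the list was called by edgeR and 3 had lower values at an unadjusted p under 0.05. Of 16852 genes, 3507 had such a p there in either direction.

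Of 17 binding and signalling partners, 3 rose and none fell, where 5.32% of all genes tested rose. The list had a median log2 fold change of 0.11, against 0.00 over all genes tested. In the 8 libraries none was called by edgeR and 5 had higher values at an unadjusted p under 0.05. Of 16852 genes, 3507 had such a p there in either direction. Brk1 and Nckap1, subunits of the WAVE complex that drives actin branching and is recruited by protocadherin tails, had log2 fold changes of 0.25 and 0.19. Fyn, a Src family kinase, had 0.22, and Nlgn1, a synaptic adhesion protein, had 0.29 without a call. The edgeR adjusted p was 0.0239 for Brk1, 0.0304 for Nckap1 and 0.0439 for Fyn. Fits without a library lost these calls 4, 7 and 7 times of 10, with edgeR adjusted p up to 0.0606 without light damage replicate 1 for Brk1. For Nckap1 and Fyn they reached 0.0855 and 0.103 without light damage replicate 3.

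Of 17 other adhesion genes of retinal self-avoidance and lamination, 2 rose and 2 fell, where 5.32% of all genes tested rose and 7.85% fell. Dscaml1, an immunoglobulin protein of self-avoidance in retinal neurons, averaged 172 ± 15.7 CPM with light damage and 234 ± 16.4 CPM in control (SD of 5 libraries), without overlap. Its log2 fold change was -0.44 (SE 0.07, edgeR adjusted p = 0.00191), the call held in all 10 fits without a library, and the value was -0.42 in the 8 libraries (edgeR adjusted p = 0.0318). Plxna2, a semaphorin receptor, fell by 0.30 on the log2 scale, while N-cadherin (Cdh2) and contactin 4 (Cntn4) rose by 0.27 and 0.25. None of these 3 calls held in the 8 libraries, where the log2 fold changes were -0.33, 0.20 and 0.24 and the edgeR adjusted p 0.104, 0.232 and 0.159. Fits without a library lost the calls of Plxna2, Cdh2 and Cntn4 5, 7 and 6 times of 10. Adjusted p by edgeR reached 0.0837 without light damage replicate 3 for Plxna2, 0.0916 without light damage replicate 2 for Cdh2 and 0.0842 without light damage replicate 3 for Cntn4. With library totals alone, Plxna2 had an edgeR adjusted p of 0.0801, and with GC and length trends removed 0.0961, with a log2 fold change of -0.15.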

How the data were processed

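Counts per gene, as whole numbers, were deposited for 10 retinal libraries. For upstream steps, RSEM 1.3.1, Bowtie2, GRCm39 (a genome build) and DESeq2 1.4.5 are listed in the submitters' processing notes, with no role given. Strand and the treatment of shared reads are not given in the sources used here. Groups and replicate numbers came from the sample titles. Symbols, transcript lengths, GC content and gene order came from GENCODE M21 (19892 of 19999 identifiers matched), an annotation of GRCm38, so no positions are printed.

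Counts were fitted in R 4.3.3 with edgeR 4.0.16 (filterByExpr defaults, TMM, robust quasi-likelihood test, group as the single term) and adjusted by Benjamini-Hochberg over 16852 genes. CPM values are TMM scaled. The standard error came from the F statistic. Alternatives used DESeq2 1.42.0, limma 3.58.1, other scalings and filters, trends in GC and length removed by lowess, the replicate number as a block, and fits without libraries. Steps were tested on simulated data. Figures used matplotlib 3.10.9.

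Members and gene lists were chosen with earlier results of these data known. Named were, per family, the member with the highest mean CPM, the 3 with the lowest p, called members, the extremes of fold change at a mean of at least 1 CPM, and the C-type isoforms. For other lists they were called genes and up to 4 genes with the lowest p. Of these lists 2 are given without 1 gene each, which is not reported here.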

Additional observations from a re-analysis of the deposited data

Results flagged for a closer look

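Among 40 sets of 5 libraries examined for the named members and the 3 family sums, 4 held a library whose gap to its nearest neighbour took up more of the range than 0.71, which chance gives in about 1 of 20 sets. For Pcdha12 the lowest light damage library, replicate 4 with 3.38 CPM, stood apart with a gap of 0.848 of the range. For Pcdhb12 the highest control library, replicate 4 with 4.50 CPM, had 0.713. For Pcdhb9 the highest light damage library, replicate 2 with 27.8 CPM, had 0.722, and the gene kept its call without it (log2 fold change 0.30, edgeR adjusted p = 0.0305). For the summed level of Pcdha the lowest light damage library, replicate 5 with 36.4 CPM, had 0.712.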

How the results depend on the processing

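The calls of Pcdhb9, Pcdhb14 and Pcdhga12 were the same under DESeq2, limma-voom, a fit without robust dispersion, 3 other scalings, both other filters on low counts, and GC and length trends removed. In the 8 libraries without light damage replicates 1 and 2, the members called were 0 higher and 0 lower. The labels do not say that replicate numbers pair the libraries, and deviations of same-numbered libraries correlated between 0.0522 and 0.316. Libraries of different numbers were not compared in this way, so pairing cannot be judged from these values. With the replicate number as a block, 2 members were higher and 1 lower, as without it, and medians were 0.11 for Pcdha, 0.13 for Pcdhb and -0.08 for Pcdhg. Over the fits without 1 library, between 1 and 2 members were called higher and between 1 and 2 lower. Family medians ranged from 0.04 to 0.24 for Pcdha, from 0.08 to 0.20 for Pcdhb and from -0.13 to -0.03 for Pcdhg. Members near 0 changed sign in these fits. The ranges were -0.0719 to 0.0619 for Pcdhb17, -0.18 to 0.12 for Pcdha3, -0.0887 to 0.39 for Pcdhac1, -0.0121 to 0.15 for Pcdhgc4 and -0.0371 to 0.13 for Pcdhgc3. Pcdhb17 also had 0.0109 in the 8 libraries and 0.0026 with GC and length trends removed. Low counts limit Pcdha members, of which 5 of 12 passed a filter at a minimum count of 50.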
